A study of Mus musculus with 2 samples.

Results

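Mir132 and Mir212 are a pair of neighbouring microRNA genes on mouse chromosome 11, taken here by their gene symbols, and they are 2 of the 2202 microRNA genes counted in the study. The samples were total RNA of the left cerebral cortex from 10-day-old female B6CASTF1/J mice, the hybrid offspring of a cross between C57BL/6J, a common inbred strain, and CAST/EiJ, an inbred strain derived from wild mice. The labels name no treatment and give a single group of 2 biological replicates, called animal 1 and animal 2, which carry different animal numbers and the same donor entry. They were taken as separate animals. P-values between them compare these 2 libraries only, and a difference may be technical. Those of the exact binomial test and Fisher's exact test cover counting noise, not the spread between animals. There is no treatment, genotype or age contrast, so the data describe the levels of the pair, the balance between its members and how far 2 animals differed. Nothing in the labels says whether the cortex had been stimulated before collection.

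The pair is known from neurons. Its shared primary transcript is switched on by the transcription factor CREB after neuronal activity or brain-derived neurotrophic factor, and the mature microRNAs then repress messenger RNAs through their first bases, the seed. In cortex and hippocampus miR-132 is known for promoting dendrite growth and spine formation. miR-132 has also been studied in endothelial and immune cells, so whole tissue can hold it from other cells too.

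The sequences below show what the products share. RefSeq (GRCm38.p6) holds a hairpin and both mature arms for 2 of the 2 genes, and the capitals mark the seed, bases 2 to 8.
miR-132-3p: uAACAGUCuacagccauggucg
miR-212-3p: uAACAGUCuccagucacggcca
miR-132-5p: aACCGUGGcuuucgauuguuac
miR-212-5p: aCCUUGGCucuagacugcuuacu
The 3p arms have the same seed, and their first 9 bases are identical. Over 22 positions they are identical at 17, and the 5 differences are A10C, C14U, U17C, U20C and G22A, counted from the 5′ end with the miR-132-3p base first. Among the 1738 mature microRNAs of the RefSeq table, the seed AACAGUC occurs in these 2 alone. The 5p arms have different seeds, ACCGUGG and CCUUGGC, each found in 1 mature microRNA of that table. Compared base by base from their 5′ ends without a shift, they are identical at 9 of 22 positions. The 5p arms look more alike when moved by 1 base against each other, which was not scored, so that count understates their likeness. The shared seed therefore lies in the 3p arms only.

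The deposited counts sum both arms of a hairpin, so the levels given here belong to the hairpin and not to an arm. The hairpins are shown because the counted reads come from them, with the annotated arms in capitals.
Mir212: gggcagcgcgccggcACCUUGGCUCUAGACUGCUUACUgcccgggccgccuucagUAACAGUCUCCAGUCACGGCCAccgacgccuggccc
Mir132: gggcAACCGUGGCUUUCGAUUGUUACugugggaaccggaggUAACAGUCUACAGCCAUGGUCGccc
Mir132 (ENSMUSG00000065537.2) lies at chr11:75173682-75173747 on the plus strand of mm10 and is 66 bases long. Mir212 (ENSMUSG00000065590.1) lies at chr11:75173388-75173478 on the same strand and is 91 bases long. A global alignment of the hairpins was identical in 53 of 94 columns, or 56.4%. The longest run of bases they share is 10. With any other annotated microRNA hairpin, on either strand, the longest shared run was 11 bases for Mir132 and 12 for Mir212. Neither gene has another genomic copy by symbol. Mir212 is rich in G and C, at 69.2%, above 96.4% of the 2202 annotated hairpins, while Mir132 stands at 57.6%, against a median of 50.8% over all hairpins. The predicted folding energy was -0.56 kcal/mol per base for Mir132, more stable than 94.3% of hairpins, and -0.46 for Mir212, more stable than 78.8%.

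Both genes lie in the first intron of the noncoding transcript 1700016P03Rik (chr11:75172560-75177633, plus strand). That intron spans 1380 bases, from 75172598 to 75173977. Mir212 comes first, 828 bases from the annotated start of the transcript, and Mir132 follows after 203 bases. The second exon begins 230 bases beyond the end of Mir132. No gene of the opposite strand overlaps either hairpin. The nearest protein-coding genes, Hic1 before the pair and Ovca2 after it, both lie on the minus strand, 3868 and 2194 bases away.

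**Figure D1:**
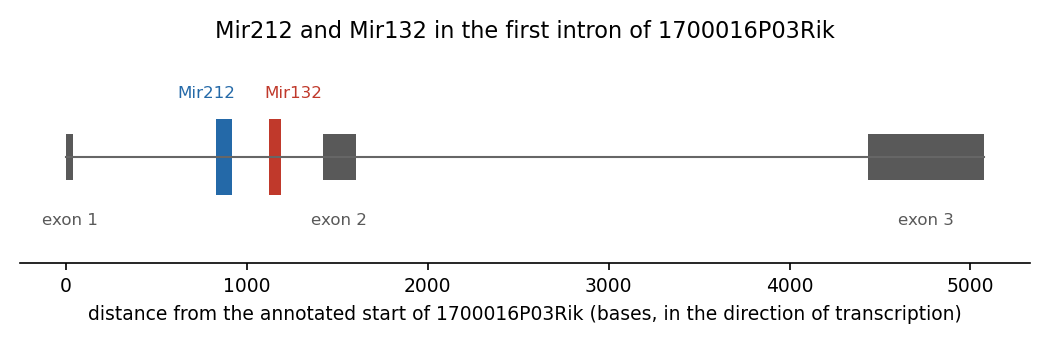
The map shows the 3 exons of 1700016P03Rik as grey boxes and the hairpins of Mir212 (blue) and Mir132 (red), to scale, in bases from the annotated start of the transcript. Both hairpins sit between exon 1 and exon 2, with Mir212 first.

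A seed works by pairing with its complement in a messenger RNA, often followed by an A. The letters GACTGTTA, the complement of the shared seed and an A, were searched on the transcript strand in the longest annotated 3′ UTR of 21173 genes, and 2.45% of these held them. Of the 3 studied targets Arhgap32, Ep300 and Rasa1, 1 held them. It is shown to make the pairing concrete, with the matching letters in capitals.
Ep300: atcactgtataGACTGTTAaatttgatttc
In Ep300, on the plus strand of chromosome 15, which encodes an acetyltransferase that works with CREB, the match starts at base 1034 of a 3′ UTR of 1095 bases. Arhgap32, a regulator of dendritic spines, and Rasa1, a Ras GTPase-activating protein, lack these letters in the UTR searched, whose lengths are 7298 and 1324 bases. The complement of the seed without the A, and other UTRs of these genes, were not searched, so a gene without these letters may still hold a site. A match is a description of letters, and no messenger RNA was measured in these libraries.

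Reads assigned to a microRNA gene on its own strand numbered 3806078 in animal 1 and 2602935 in animal 2, or 33.5% and 30.4% of all reads in each table. Levels are given as CPM, the reads of a gene per 1000000 such reads, or as a percentage of them. Reads without molecular identifiers are not independent molecules, so the exact Clopper-Pearson 95% intervals below cover counting error only. Some 42.7% and 40.4% of reads mapped to several positions and stand apart from the genes.

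Mir132, the abundant member, had 24823 reads in animal 1 and 18150 in animal 2. This is 0.652% (95% interval 0.644 to 0.660) and 0.697% (0.687 to 0.707) of counted reads, with a mean of 6747 CPM ± 319 (SD, n = 2). By this measure the level was close in both animals, although the 2 counting intervals do not overlap. Mir212 had 771 reads in animal 1 and 371 in animal 2, or 202.6 CPM (188.5 to 217) and 142.5 CPM (128.4 to 158), with a mean of 172.6 CPM ± 42.5 (SD, n = 2). Mir212 was low in both animals relative to its partner and higher in animal 1, and the 2 intervals do not overlap. Relative to their means in CPM, the SD over the animals was 4.73% for Mir132 and 24.6% for Mir212. This contrast depends on the scaling between libraries. After the TMM scaling used below, both genes differed by 1.23-fold, in opposite directions. On the opposite strand each gene had 0 reads in both animals, and a count of 0 allows up to 3 reads, or 0.788 and 1.15 CPM. Own-strand and unstranded counts of both genes were identical.

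By mean CPM, Mir132 took rank 31 of the 2202 genes, with rank 30 in animal 1 and rank 28 in animal 2. Mir212 took rank 186, with ranks 181 and 187, among 770 genes with a read in either library. Per base of hairpin the ranks were 27 and 190. In the order of mean CPM, Mir330 (7648 and 6594 CPM in animals 1 and 2) and Mir342 (7324 and 6479) stood just above Mir132, and Mir541 (6866 and 6380) and Mir411 (6159 and 5990) just below. The range of Mir132 over the animals overlaps those of Mir330, Mir342 and Mir541 and lies above that of Mir411. Around Mir212 stood Mir500 (201.0 and 197.1 CPM) and Mir1843a (190.0 and 159.8) above, and Mir7-2 (206 and 135; it has several copies by symbol) and Mir669o (147 and 186) below. All 4 of these ranges overlap that of Mir212, so its exact place in the order is not settled by these animals.

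**Figure D2:**
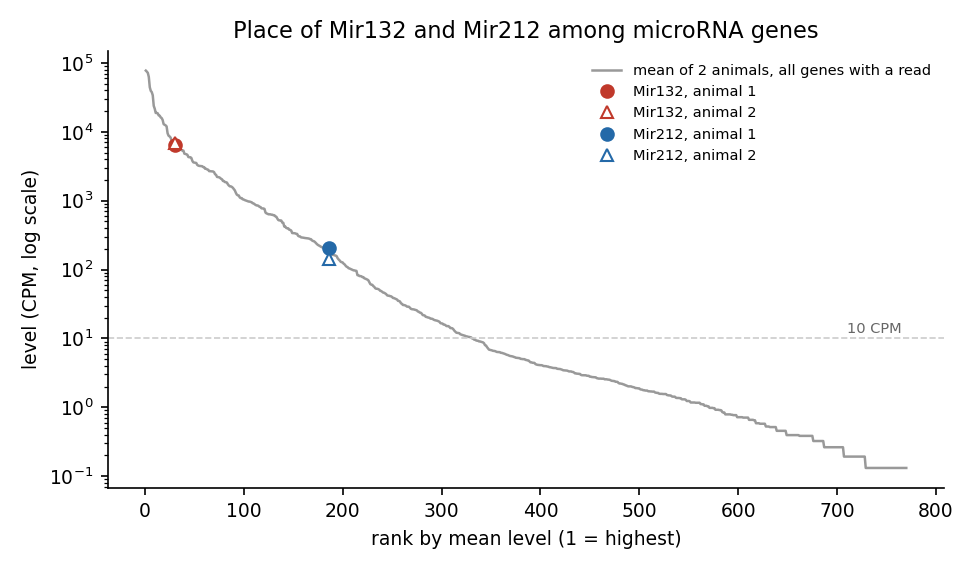
The grey line gives the mean level in CPM (log axis) of the 770 genes with a read, ordered by rank. Filled circles (animal 1) and open triangles (animal 2) show Mir132 at rank 31 and Mir212 at rank 186, both far above the dashed line at 10 CPM.

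Likeness of level was measured as the distance of log2(CPM + 0.5) over the 2 libraries, among genes with a single copy by symbol. Nearest to Mir132 were Mir541 (distance 0.15), Mir342 (0.20) and Mir411 (0.23). Mir541 and Mir411 are microRNAs of the imprinted region on chromosome 12, and Mir342 lies in an intron of Evl. Nearest to Mir212 were Mir135b (0.14), Mir873a (0.15) and Mir1843a (0.19). With 2 libraries of 1 group, such likeness compares levels only.

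The balance within the pair does not depend on how the libraries are scaled against each other, since both genes are read in the same library. Animal 1 had 32.2 reads of Mir132 for each read of Mir212 (95% interval 30.0 to 34.6), and animal 2 had 48.9 (44.1 to 54.4). The mean was 40.6 ± 11.8 (SD, n = 2). Per base of annotated hairpin it was 55.9 ± 16.3, although whether reads scale with hairpin length was not tested. Mir212 thus made up 3.01% of the reads of the pair in animal 1 and 2.00% in animal 2. Although the genes share a host intron, their reads were very unequal in both animals. This is a balance of reads, and the balance of molecules was not measured. The excess of Mir132 in reads was 1.52 times as large in animal 2 (95% interval 1.34 to 1.73). Fisher's exact test on the 4 counts, two-sided, gave p = 2.6e-11. That test compares these 2 libraries and covers counting noise, not the spread between animals.

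Unequal hairpins are common where microRNA genes lie side by side. Pairs of adjacent hairpins on the same strand, at most 1000 bases apart and each with at least 100 reads over both animals, gave 53 further pairs made of 91 genes, a comparison chosen after the values of the pair were known. Their median excess of the higher hairpin over the lower was 5.03-fold in reads, against 39.6-fold (a geometric mean over the animals) for Mir132 over Mir212. Of the 53 pairs, 7 were more unequal in reads and 4 more unequal in reads per hairpin base. These include Mir23a over Mir27a, at 92.3-fold, and Mir487b over Mir539, at 402-fold. The ratio of Mir132 to Mir212 moved by 0.60 on the log2 scale between the animals, and 24 of the 53 pairs moved further, with a median of 0.48. By level the pair was thus near the unequal end of this set, and by change between the animals it lay in the middle. Many of these pairs share a hairpin or a transcript, so they are not independent and no test was made.

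**Figure D3:**
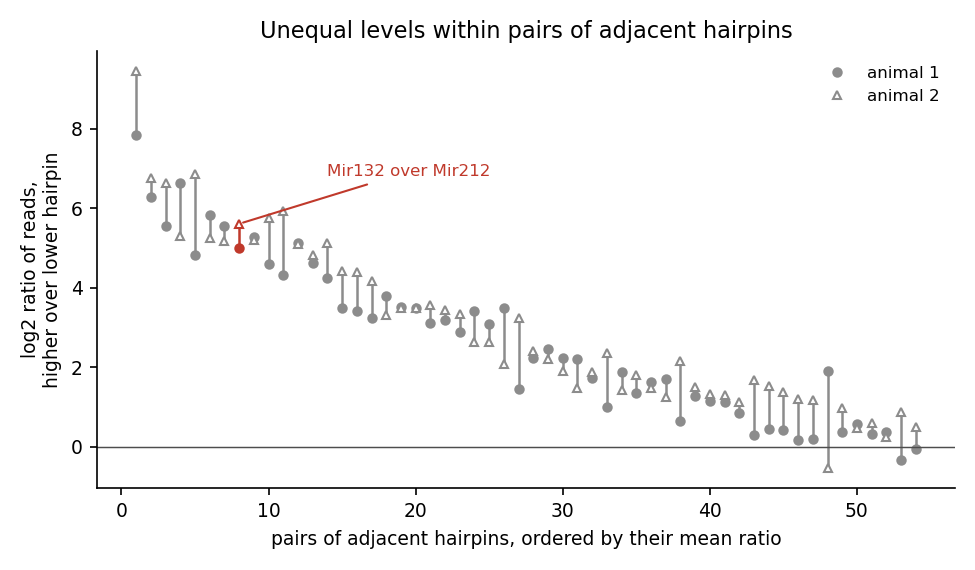
Each vertical line is a pair of adjacent hairpins, ordered by its mean ratio, with the log2 ratio of reads of the higher over the lower hairpin in animal 1 (filled circle) and animal 2 (open triangle). Mir132 over Mir212, in red, stands at 5.01 and 5.61, with 7 pairs of larger ratio before it.

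Between the libraries the members went opposite ways by small amounts. After TMM scaling the log2 ratio of animal 1 over animal 2 was -0.30 for Mir132 (95% counting interval -0.33 to -0.27), 1.23-fold higher in animal 2, although as a share of all reads in the table it was 0.219% in animal 1 and 0.212% in animal 2, the other order. For Mir212 the log2 ratio was 0.30 (0.12 to 0.49), 1.23-fold higher in animal 1. The exact conditional binomial test with Benjamini-Hochberg adjustment over 531 genes gave adjusted p = 3.6e-98 for Mir132 and 0.0021 for Mir212. Both members were called, as were 51.6% of the genes tested (26.9% higher in animal 1 and 24.7% higher in animal 2), so being called says little about the pair. Opposite directions were also common, since both hairpins were called in opposite directions in 21 of the 53 other adjacent pairs. With library totals only, 189 genes were called higher in animal 1 and 91 in animal 2, against 143 and 131 after TMM.

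The differences of the pair were small beside the spread of all genes between the animals. The common biological coefficient of variation was 38.0%, and at the abundance of Mir132 and Mir212 edgeR's trend gave 34.7% and 40.4%. With that common spread in place of counting noise, edgeR's negative binomial exact test gave an adjusted p of 1 for both members, and unadjusted p = 0.70 for each. It called 0.188% of the genes tested, which is 1 gene, Mir301, with 33 genes at an unadjusted p below 0.05. The spread was estimated from the same 2 libraries that were compared, so it already held their differences. This test therefore cannot show that a gene does not differ. The median absolute log2 ratio of all genes was 0.51, and 32.0% of genes differed less than Mir132 and 32.4% less than Mir212. Relative to the median log2 ratio of all genes, 0.04, Mir132 stood at -0.34 and Mir212 at 0.26. Both were smaller in size than the median absolute log2 ratio of all genes.

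**Figure D4:**
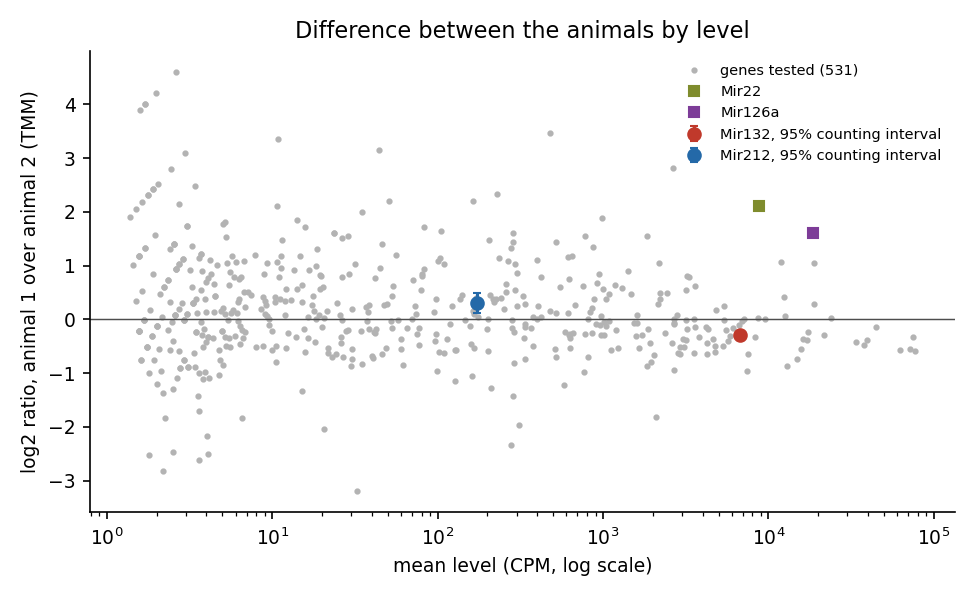
Each grey point is 1 of the 531 genes tested, with its mean level in CPM (log axis) and its log2 ratio of animal 1 over animal 2 after TMM. Mir132 at -0.30 (higher in animal 1 as a share of all reads) and Mir212 at 0.30, with 95% counting intervals, lie within the cloud, and Mir22 at 2.10 and Mir126a at 1.60 lie above the upper quartile of 0.72.

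Of the other microRNA genes near the pair, only Mir22 reached the level of Mir132, and its range over the animals encloses that of Mir132. Within 500 kb on chromosome 11, Mir22 starts 290034 bases beyond the start of Mir132 and was 14612 CPM in animal 1 and 2960 in animal 2. After TMM it was 4.29-fold higher in animal 1. It is the abundant product of its own noncoding host. Mir6926, on the other side of the pair, had 4 reads and 1 read. Gm47300 and Mir3971 had 0 reads in both animals. Beside Mir22, Mir132 stood at 6522 and 6973 CPM and Mir212 at 202.6 and 142.5 CPM. Mir212 was higher in animal 1 as Mir22 was, but by 1.23-fold after TMM.

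Other microRNAs tied to neuronal activity or synaptic plasticity were measured as a list of 14 genes beside the pair. At 10 CPM or more in both libraries 12 were detected, against 13.9% of all microRNA genes. By the exact binomial test 6 were higher in animal 1, 4 were higher in animal 2 and 4 did not pass. Of all genes tested, 51.6% were called, 26.9% higher in animal 1 and 24.7% higher in animal 2. Scaling by library totals alone gave 10 and 1, and DESeq2's size factors gave 5 and 5. The list's median log2 ratio was 0.02, close to the 0.04 of all genes. Of the list, 5 genes have several copies by symbol, so their levels are uncertain.

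Mir137, a regulator of neuronal maturation, was the only listed gene above Mir132, with 9278 CPM in animal 1 and 7888 in animal 2. Below it came Mir379 (5502 and 5519 CPM), the first gene of the large cluster of chromosome 12 whose transcript follows activity through Mef2. Of the same cluster, Mir134, which limits spine size through Limk1, stood at 1527 and 1640 CPM, Mir485 at 2511 and 1786, Mir329 at 463 and 340, and Mir410 at 216 and 187. Mir381 of that cluster differed most among these, at 1193 and 355 CPM, and after TMM it was 2.92-fold higher in animal 1. Its log2 ratio of 1.55 lies above 0.72, the upper quartile of all genes, and with the common spread its adjusted p was 0.80 by edgeR's exact test.

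Mir134 and Mir188 moved between the libraries much as Mir132 did, with log2 ratios of -0.31 and -0.30. Mir184, Mir485 and Mir329 were nearer to Mir212, at 0.29, 0.29 and 0.24, and of these Mir184 did not pass the test. Mir188 stood at 604 and 647 CPM. Mir138-1, a dendritic microRNA that limits spine growth, stood at 2865 and 2472 CPM and Mir138-2 at 1153 and 1025, and neither passed the test. Mir181a-1 stood at 1199 and 1196 CPM. The lowest members were Mir184 (57.5 and 40.7 CPM), Mir181a-2 (80.4 and 7.68) and Mir219a-1 (20.2 and 1.54), the last being studied, with miR-132, in the circadian clock. In reads, Mir212 stood below 11 and above 3 of the 14.

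**Figure D5:**
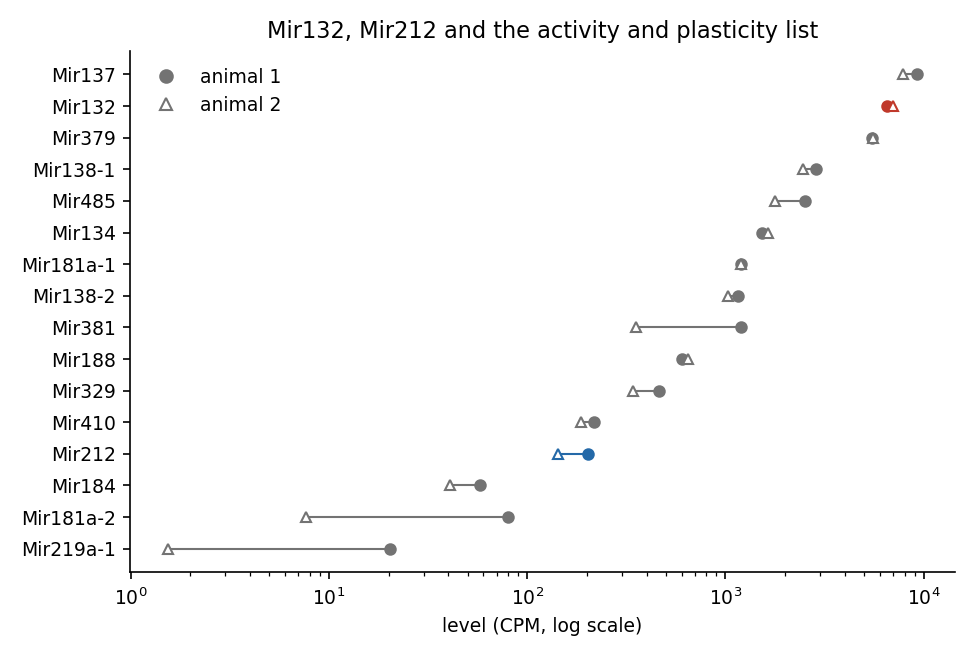
Levels in CPM (log axis) of Mir132, Mir212 and the 14 listed genes, ordered by mean level, with animal 1 as filled circles and animal 2 as open triangles. Mir132 is second after Mir137, and Mir212 has 3 listed genes below it.

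In whole tissue, fewer cells of a type and less RNA per cell cannot be told apart, so markers of the cell types present are given beside the pair. The 11 neuronal genes summed to 3.60% of counted reads in animal 1 and 3.53% in animal 2. At 10 CPM or more in both libraries 8 were detected, against 13.9% of all microRNA genes. Of the 9 tested, 4 were higher in animal 1, 2 were higher in animal 2 and 3 did not pass. Of all genes tested, 26.9% and 24.7% were called in these directions. Among them Mir128-1 led at 15292 and 17136 CPM, while the 3 Mir124a genes, whose reads fit several positions, stood between 0.384 and 3.42 CPM. Like Mir132, Mir128-1 and Mir128-2 were higher in animal 2 after TMM, with log2 ratios of -0.37 and -0.31. Like Mir212, Mir129-1 (0.65), Mir129-2 (1.34) and Mir153 (0.38) were higher in animal 1. Mir137 (0.03), Mir138-1 (0.01) and Mir138-2 (-0.03) hardly differed. Of the 11 neuronal genes 9, among them those of Mir128 and Mir129, have several copies by symbol, so their levels are uncertain.

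After TMM, markers of other cell types differed by more than the pair in some cases and by less in others. The range ran from 5.66-fold for Mir34b, which rests on 5 and 18 reads, to 1.00-fold for Mir204. Mir34c, with 391 and 1173 reads, differed by 5.05-fold. Counts of these markers stand beside 26.9% of all genes tested called higher in animal 1 and 24.7% higher in animal 2. Endothelial Mir126a made up 2.89% and 0.826% of counted reads and was 3.04-fold higher in animal 1 after TMM. Its partner Mir126b had 0 reads. Smooth muscle and pericyte genes, 2 of 2 higher in animal 2, summed to 0.315% and 0.452%. Oligodendrocyte genes, 2 of 2 tested higher in animal 2, summed to 0.117% and 0.164%, with Mir219b at 0 reads. Of 5 microglial and blood genes 3 were higher in animal 2 and 2 did not pass, with sums of 0.159% and 0.194%. Of 3 erythroid genes 2 were higher in animal 1, with sums of 0.00780% and 0.00465%, and choroid plexus and ciliated cell genes, 3 of 4 higher in animal 2, summed to 0.111% and 0.150%. Whether the makeup of the samples has a part in the small differences of Mir132 and Mir212 was not tested.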

How the data were processed

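MicroRNA sequencing reads of 2 libraries were used, 1 per animal. Per the labels, RNA below 30 bases was prepared by a multiplexed microRNA protocol. Per the notes deposited with the tables, the values are whole-number read counts per microRNA gene on mm10 with GENCODE M21. No aligner or counter is given in the sources used here. Reads carry alleles of both parent strains. The own-strand counts were used, and 4 rows of no gene (66.5% and 69.6% of reads) entered neither library sizes nor tests. Symbols, coordinates and hosts come from GENCODE M21, sequences from RefSeq (GRCm38.p6) and M21 transcripts.

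TMM factors (1.07 and 0.932) and dispersions came from edgeR 4.0.16 in R 4.3.3, with an intercept-only design on the 531 genes with at least 10 counts over both libraries. The single group leaves no contrast for a quasi-likelihood test. The two-sided exact conditional binomial test used TMM library sizes, and its p-values were adjusted over the 531 genes by Benjamini-Hochberg, with calls below 0.05; log2 ratios add 0.5 to each count. It was tested on simulated data with counting noise only, which do not show how it behaves under the spread between animals. Python 3.11.15, scipy 1.17.1, Biopython 1.88 (alignment) and RNAfold 2.7.2 were used. Alternatives were other scalings (DESeq2 1.42.0), filters, strand columns, denominators and each animal alone.

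Named genes are the members, the 2 genes on either side in level, the 3 most alike, microRNA genes within 500 kb, the activity list and cell type markers; Mir301 and the pairs Mir23a with Mir27a and Mir487b with Mir539 were named after their values were seen. The members and lists were chosen with earlier results of these data known. A further target gene is not reported here.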

Additional observations from a re-analysis of the deposited data

How the results depend on the processing

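Under every scaling, filter and strand column tried with the exact binomial test, the log2 ratio kept its sign and its call, from -0.35 to -0.10 for Mir132 and from 0.25 to 0.51 for Mir212. As a share of all reads, where no test was made, Mir132 had the other order, with 0.219% in animal 1 and 0.212% in animal 2. With the common spread in a negative binomial test both calls were lost, at -0.30 and 0.30 with adjusted p = 1, and 1 gene was called in place of 274. That spread came from the same 2 libraries, so the loss of calls was largely built in. The median log2 ratio of all genes moved from 0.04 with TMM to 0.25 with library totals only.

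The level of Mir132 was 0.726% in the unstranded column, 1.33% without the 10 most abundant genes and 0.215% of all reads; that of Mir212 was 0.0334% and 0.00557% under the last 2. Rank 31 of Mir132 became 28 in the unstranded column, and rank 186 of Mir212 became 172 there and 168 without genes of several copies. Per base of hairpin, chosen after seeing the data, the ratio was 55.9. With 1 animal alone, levels ran from 0.652 to 0.697% and from 0.0143 to 0.0203%, ranks from 28 to 30 and from 181 to 187, and the ratio from 32.2 to 48.9. No paired analysis was possible because the libraries form a single group. With 2 animals and counted arms summed, neither the spread between animals nor the arms can be resolved further. Depth limits Mir212 more than Mir132, since it rests on 371 reads in animal 2.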
